A study of Mus musculus with 6 samples.

Results

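Superoxide dismutases, catalase, glutathione peroxidases, the copper chaperone Ccs and the peroxiredoxin Prdx4 were followed in regulatory T cells (Treg cells) that lack Keap1. The genes chosen were Sod1, Sod2, Ccs, Cat, Gpx1, Gpx4, Gpx7, Prdx3 and Prdx4, and each was located by its symbol, or an older synonym, in the annotation of the array's transcript clusters (1 cluster being a set of probes for 1 transcribed locus). Of these 9 genes, 8 had a cluster, each a single cluster with no other gene symbol on it, out of 30024 named genes in the series. The expression of Prdx3 is not analysed here. Samples were splenic CD4+ CD25+ T cells (the series title writes CD4-), separated with magnetic beads from untreated male C57BL/6 mice: 3 arrays (B, C and D) from VAVcreKeapfl/fl mice (Keap1_KO, labelled Keap1 -/-) and 3 (A, D and F) from WT mice (labelled Keap1 +/+). Vav-driven Cre acts across blood-forming cells, so Keap1 is deleted in other blood lineages as well as in T cells, and the labels do not say whether the WT mice carried Cre or floxed alleles. The sample characteristics give an age of 10 to 12 months and the growth protocol 6 to 10 weeks, for both genotypes. Whether each array is a separate mouse is not stated, so p-values measure only the spread between these arrays, which may be partly technical.

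These enzymes act in sequence on reactive oxygen species. Superoxide dismutases turn superoxide into hydrogen peroxide, with SOD1 in the cytosol using copper and zinc and SOD2 in mitochondria using manganese, and CCS is the chaperone that loads copper into SOD1. Hydrogen peroxide is then removed by catalase in peroxisomes, by glutathione peroxidases with glutathione as donor, and by peroxiredoxins. In T cells hydrogen peroxide is also a signalling molecule downstream of the antigen receptor. KEAP1 holds the transcription factor NRF2 (gene Nfe2l2) at a low level by marking it for degradation, and NRF2 activates many antioxidant genes through a DNA motif called the antioxidant response element.

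Values are deposited log2 values, and differences are Keap1_KO minus WT on that scale. Folds are computed from these differences and assume a true log2 scale, although the values were rescaled in an unstated step (see Sod1). Triplets of values follow the order B, C, D for Keap1_KO arrays and A, D, F for WT arrays. Keap1 itself was dim, at 4.87, 4.89 and 4.70 in Keap1_KO against 5.30, 5.41 and 5.77 in WT. Its values did not overlap between genotypes (exact permutation p = 0.1, 2-sided, the smallest that 3 arrays against 3 allow), although probes outside the floxed part would not report the deletion. Of 9 markers of CD4 T cells and Treg cells with a cluster of their own, all passed the intensity filter (a value at or above the array's median on at least 3 of the 6 arrays). Foxp3, which defines Treg cells, shares its cluster with another symbol and was not among them. The filter was also passed by 16825 of the 30024 named genes. All 9 NK cell markers and all 9 B cell markers with a cluster passed it as well. Passing it therefore does not show that the cells were Treg cells. Keap1_KO B stood apart from the other Keap1_KO arrays: across 16825 genes tested its correlation was 0.961 with Keap1_KO C and 0.959 with Keap1_KO D, and 0.988 with WT A. The difference of each tested enzyme is therefore also given without that array. Keap1_KO C and D were in turn the less like WT, with correlations of 0.9265 to 0.9755 with the WT arrays. Keap1_KO B was picked out from these same values and was the lowest Keap1_KO array for all 8 enzyme genes. Leaving it out thus raises each difference in advance, so a lower adjusted p without it adds no support. No gene passed an adjusted p under 0.05 in limma (0% of the genes tested, with 1733 at an unadjusted p under 0.05), so none of the differences below is called at that threshold.

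Of the 8 antioxidant enzyme genes with a cluster, 7 passed the intensity filter, and all 7 had a higher mean in Keap1_KO cells, as did 56.5% of all genes tested. The median difference was 1.33, beside 0.06 over all genes. The differences fell into an upper group of 4 genes of at least 1, a size reached by 6.81% of all genes (Ccs, Cat, Sod1 and Gpx1, from 2.52-fold to 6.67-fold), and a lower group of 3 (Prdx4, Gpx4 and Sod2, from 1.14-fold to 1.67-fold). The same 4 genes had an unadjusted limma p under 0.05, which 8.38% of all genes had with a higher value in Keap1_KO. All Keap1_KO arrays lay above all WT arrays for 2 genes, Ccs and Cat, a separation seen in 9.11% of all genes. In WT cells the lowest value of any of the 7 was 6.14, above the highest array median of 5.43, so none passed the filter through the Keap1_KO arrays alone. In bulk samples a higher share of a cell type and more RNA per cell cannot be told apart.

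**Figure D1:**
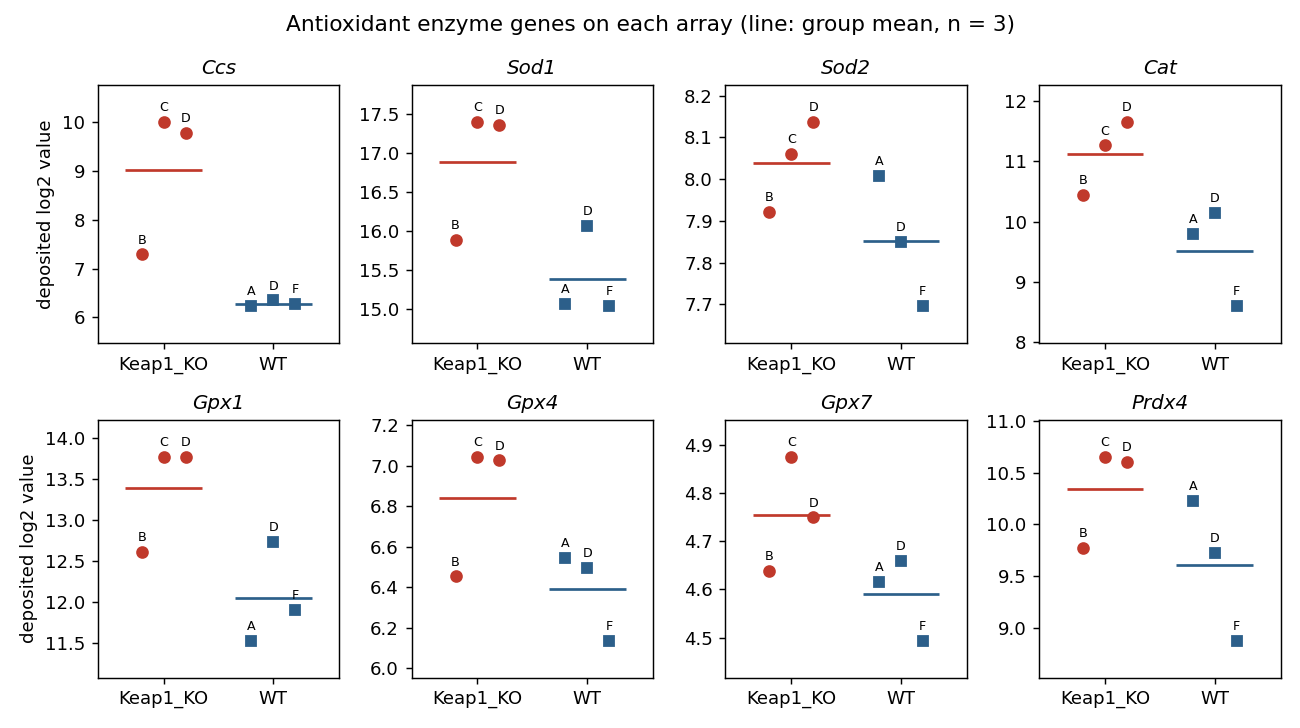
Deposited log2 value (vertical axis, its own range in each panel) of the 8 antioxidant enzyme genes on each Keap1_KO array (circles) and each WT array (squares), with letters for replicates and lines for group means. The WT values of Ccs lie within 0.11 of each other and below all 3 Keap1_KO values, and Keap1_KO B is the lowest Keap1_KO array in all 8 panels.

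Ccs, the copper chaperone of SOD1, differed most. It read 7.29, 10.00 and 9.78 in Keap1_KO, against 6.23, 6.35 and 6.27 in WT. The WT arrays spanned 0.11 and the Keap1_KO arrays 2.71, and the lowest Keap1_KO array exceeded the highest WT array by 0.94. The difference was 2.74 (SE 0.70, 6.67-fold), the 23rd highest of the 16825 genes tested, with an exact permutation p of 0.1 and a limma adjusted p of 0.476. Without Keap1_KO B it was 3.60 and its limma adjusted p was 0.0218. Ccdc87, a neighbour within 3000 bases of Ccs, was dim and differed by -0.14, at 3.81 ± 0.11 in Keap1_KO and 3.94 ± 0.05 in WT (SD, n = 3 each).

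Sod1, the cytosolic dismutase that CCS serves, read 15.89, 17.41 and 17.36 in Keap1_KO. In WT it read 15.07, 16.07 and 15.04. The groups overlapped because Keap1_KO B lay 0.18 below WT D, while Keap1_KO C and D exceeded every WT array. The difference was 1.49 (SE 0.50, 2.81-fold, exact permutation p = 0.2, limma adjusted p = 0.476). Without Keap1_KO B it was 1.99, with a limma adjusted p of 0.0492. Sod1 values exceeded 16, more than a 16-bit scanner can give on a log2 scale, so the values were rescaled in a step that no source states.

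Sod2, the mitochondrial dismutase, had the smallest difference of the 7 tested enzyme genes. It read 7.92, 8.06 and 8.14 in Keap1_KO and 8.01, 7.85 and 7.70 in WT, so the groups overlapped. The difference was 0.19 (SE 0.17), with a limma 95% interval from -0.21 to 0.59, and without Keap1_KO B it was 0.25. Compared directly with Sod1, the within-array difference of Sod1 minus Sod2 averaged 8.84 in Keap1_KO and 7.55 in WT, a gap of 1.30 (SE 0.56, exact permutation p = 0.2, 0.267 adjusted over the 4 pairs of genes compared). For Ccs minus Sod1 the Keap1_KO arrays all lay above the WT arrays, with a gap of 1.25 (SE 0.48, exact permutation p = 0.1, adjusted 0.267). Neither pair passed an adjusted p under 0.05, and 3 arrays against 3 cannot reach it.

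Cat encodes catalase, the peroxisomal enzyme that splits hydrogen peroxide without a reducing partner. It read 10.44, 11.27 and 11.66 in Keap1_KO, against 9.79, 10.14 and 8.59 in WT. Every Keap1_KO array was above every WT array, by 0.30 at the closest. The difference was 1.61 (SE 0.49, 3.06-fold, exact permutation p = 0.1, limma adjusted p = 0.476), and it was 1.95 without Keap1_KO B (limma adjusted p = 0.0778). WT F was the low WT array, and without it the difference was 1.15.

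Gpx1, the abundant selenium-containing glutathione peroxidase of cytosol and mitochondria, read 12.61, 13.77 and 13.77 in Keap1_KO. In WT it read 11.53, 12.73 and 11.90, and Keap1_KO B fell between WT F and WT D. The difference was 1.33 (SE 0.44, 2.52-fold, exact permutation p = 0.2, limma adjusted p = 0.476), and 1.72 without Keap1_KO B (limma adjusted p = 0.0626). The within-array difference of Cat minus Gpx1 averaged -2.26 in Keap1_KO and -2.54 in WT, a gap of 0.28 (SE 0.47, exact permutation p = 0.6, adjusted 0.6). That gap turned to -0.10 without WT F and to -0.25 with arrays weighted by limma, so no order between catalase and Gpx1 was resolved. Rhoa, a GTPase gene within 3000 bases of Gpx1, averaged 12.93 ± 0.66 in Keap1_KO and 12.18 ± 0.46 in WT (SD, n = 3 each), a difference of 0.76. Of neighbours within that distance of other enzyme genes, Scaf4 (beside Sod1) differed by -0.27 and Sbno2 (beside Gpx4) by 0.19. Elf5 (beside Cat) did not pass the filter and differed by -0.20.

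Gpx4, the glutathione peroxidase that reduces lipid peroxides in membranes and guards against ferroptosis, differed less. It read 6.45, 7.05 and 7.03 in Keap1_KO and 6.55, 6.50 and 6.14 in WT. Keap1_KO C and D exceeded all WT arrays and Keap1_KO B did not. The difference was 0.45 (SE 0.23, 1.37-fold, exact permutation p = 0.3, limma adjusted p = 0.492), and 0.64 without Keap1_KO B. Gpx4 has processed pseudogenes that its probes may not separate. For Gpx1 minus Gpx4 the within-array difference averaged 6.54 in Keap1_KO and 5.66 in WT, a gap of 0.89 (SE 0.41, exact permutation p = 0.2, adjusted 0.267). The gap was 0.55 without WT A and 1.40 with array weights.

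Gpx7, a glutathione peroxidase-like protein of the endoplasmic reticulum, was dim on every array and did not pass the intensity filter. It read 4.64, 4.88 and 4.75 in Keap1_KO and 4.62, 4.66 and 4.49 in WT, all below 5.16, the lowest of the array medians. Fitted with every cluster and no filter, the difference was 0.16 (SE 0.13, limma adjusted p = 0.708). Prdx4, the peroxiredoxin of the endoplasmic reticulum, which uses hydrogen peroxide to drive disulfide formation, read 9.78, 10.66 and 10.60 in Keap1_KO. In WT it read 10.23, 9.72 and 8.88, and Keap1_KO B again lay inside the WT range. The difference was 0.74 (SE 0.41, 1.67-fold, exact permutation p = 0.2, limma adjusted p = 0.498). It was 1.02 without Keap1_KO B and 0.37 without WT F.

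**Figure D2:**
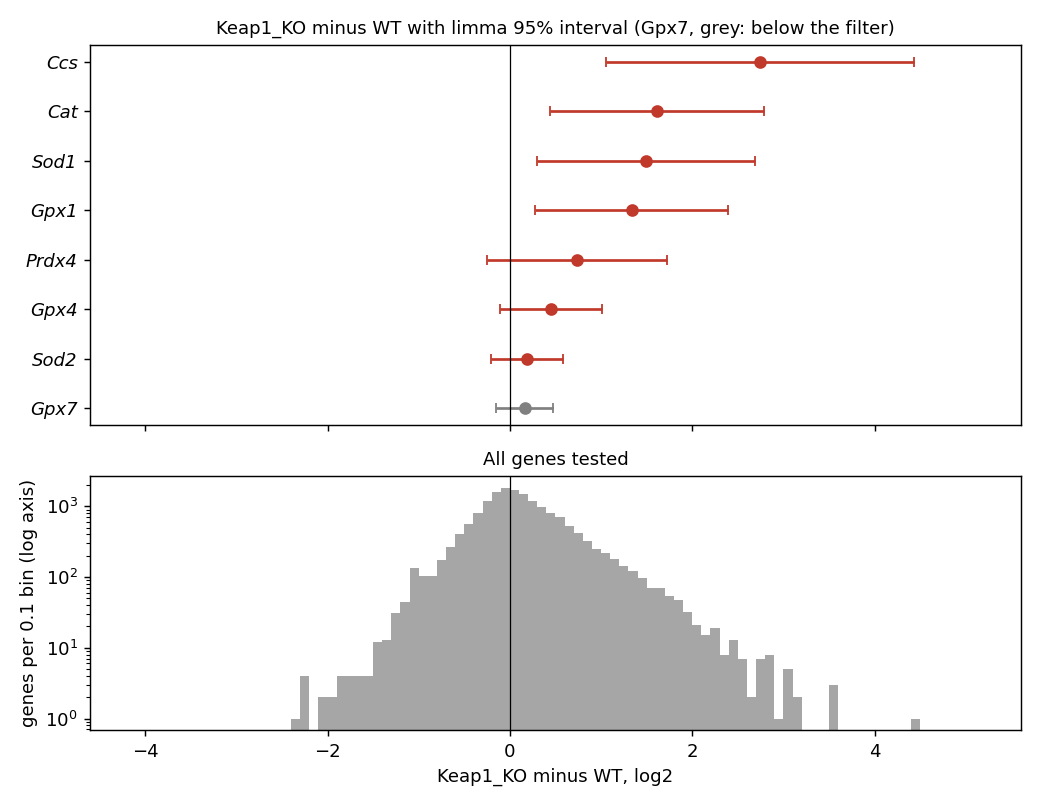
Upper part: difference of Keap1_KO minus WT (log2) for each antioxidant enzyme gene, with limma's 95% interval. Lower part: the same difference for all 16825 genes tested, counted in bins of 0.1 on a log axis. The intervals of Ccs, Cat, Sod1 and Gpx1 lie above 0 before adjustment for the number of genes, those of Prdx4, Gpx4, Sod2 and Gpx7 span 0.

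Across arrays the 7 genes had similar profiles. Their mean centred profile was -0.14, 0.98 and 0.995 in Keap1_KO, and -0.57, -0.29 and -0.98 in WT. Pearson correlations between pairs of genes over the 6 arrays ranged from 0.62 (Sod2 with Gpx1) to 0.99 (Sod1 with Gpx1), with a median of 0.90 over 21 pairs, and these values share the arrays, their normalization and the genotype difference. Keap1_KO B was the lowest Keap1_KO array for all 8 genes, as it was for 46.9% of all genes tested. Keap1_KO C and D each lay above every WT array for all 8, and Keap1_KO B for 2. The share of all genes for each of these arrays alone is not given here, so these counts are a description. Without Keap1_KO B all 7 tested genes separated from WT, but so did 31.4% of all genes in that direction, and 2 of the 7 (Ccs and Sod1) passed the adjusted threshold, which 3.22% of all genes passed with a higher value in Keap1_KO.

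NRF2 core targets outside these enzymes were set beside them on the same arrays. Keap1_KO B was the lowest Keap1_KO array for 15 of the 19 targets tested, and for 46.9% of all genes. It lay above every WT array for 12 of the 19 targets and for 2 of the 7 tested enzyme genes. The share of all genes for which it lay above every WT array is not given here. These 2 counts are therefore a description and not a contrast between the lists. Txnrd1, which encodes thioredoxin reductase, read 9.22, 9.27 and 9.45 in Keap1_KO, against 7.96, 8.34 and 7.68 in WT. Nqo1, a quinone reductase gene, read 8.50, 7.55 and 9.14 in Keap1_KO, against 4.68, 4.69 and 5.03 in WT, where it lay below the array medians. For these genes Keap1_KO B was close to or between the other Keap1_KO arrays. Other targets had a low Keap1_KO B as Sod1 and Gpx1 did. Gstp1, a glutathione transferase gene, was 0.70, 3.80 and 3.43 above its WT mean on Keap1_KO B, C and D, and Taldo1, of the pentose phosphate pathway, 0.40, 2.14 and 2.54. Sod1 was 0.49, 2.01 and 1.96 above its WT mean and Gpx1 0.56, 1.72 and 1.72. Nfe2l2 itself was 0.14, 1.15 and 1.74 above its WT mean. The difference between the lists on this array was not tested.

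**Figure D3:**
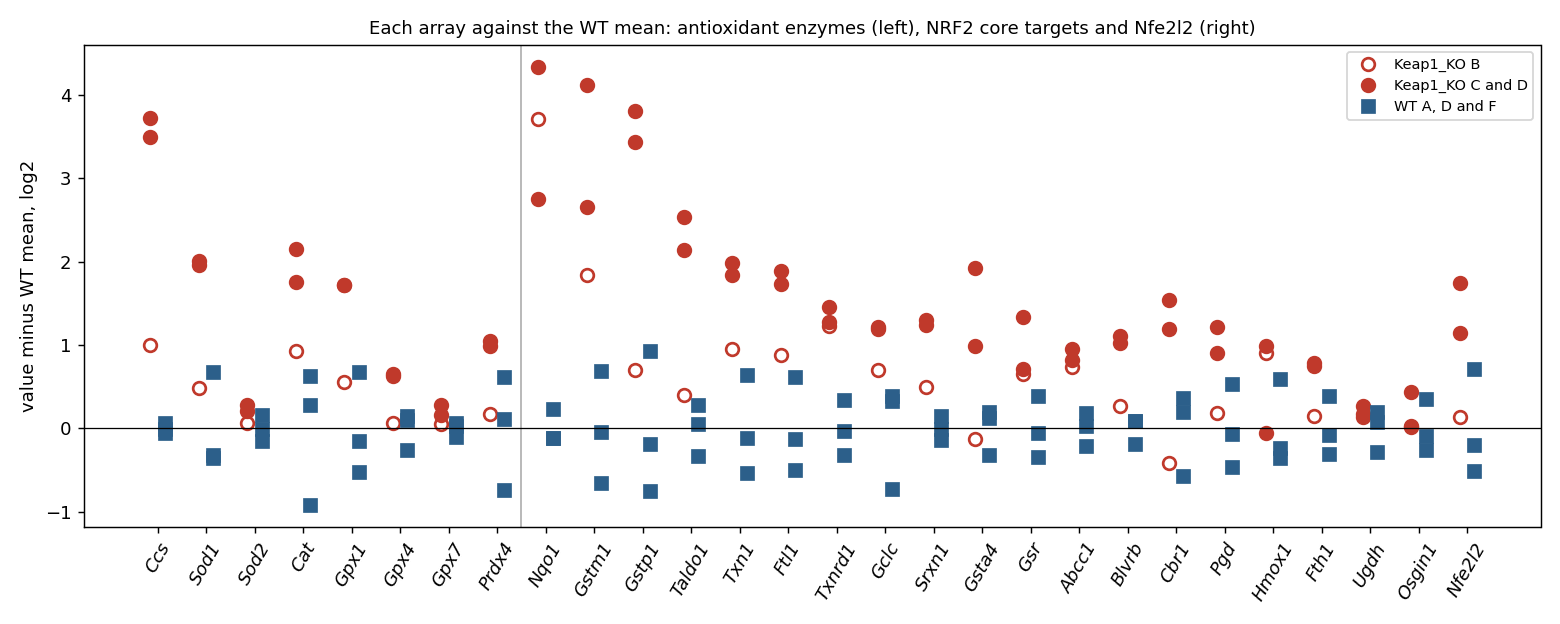
Value of each array minus the WT mean of that gene (log2, vertical axis) for the antioxidant enzyme genes left of the grey line and, right of it, for the 19 NRF2 core targets tested and Nfe2l2. Open circles are Keap1_KO B, filled circles Keap1_KO C and D, squares WT. The open circle lies above all squares for Ccs, Cat and 12 of the 19 targets, and is the lowest circle for all 8 enzyme genes and 15 of the 19 targets.

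Markers of other cells also varied by array. Of 11 marker lists, 10 had their highest mean on Keap1_KO D, including the CD4 T cell and Treg list. Means are over all markers with a cluster. For neutrophils the mean of 12 markers ranged from 7.75 to 11.90 on Keap1_KO arrays and from 7.63 to 8.86 on WT arrays, and over the 11 that passed the filter (Mmp9 did not) from 8.04 to 12.45 and from 7.90 to 9.21. The mean of all 12 was 9.70 on Keap1_KO C and 11.90 on Keap1_KO D. On those arrays Sod1 read 17.41 and 17.36, Gpx1 13.77 on both, Cat 11.27 and 11.66, and Ccs 10.00 and 9.78. Of the erythroid markers 5 of 12 had a cluster of their own, at means of 6.48 to 6.69 on Keap1_KO and 6.12 to 6.51 on WT, and red cell precursors express Cat and Gpx1 strongly. Plasma cells, rich in Prdx4, had 9 of 10 markers past the filter, at 7.18 to 8.64 on Keap1_KO and 7.12 to 7.84 on WT. The mean of 14 macrophage and monocyte markers was 6.46 to 6.91 on Keap1_KO and 6.00 to 6.68 on WT, and over the 9 that passed (C1qa, C1qb, Cd14, Fcgr1 and Spic did not) 7.39 to 8.28 on Keap1_KO and 6.72 to 7.84 on WT. The mean of 2 CD8 T cell markers was 6.67, 8.32 and 8.38 in Keap1_KO and 6.99, 7.79 and 6.34 in WT. For this list, as for Sod1 and Gpx1, Keap1_KO B lay inside the WT range and Keap1_KO C and D above every WT array. The same order held for the means of the CD4 T cell and Treg, neutrophil, erythroid, and platelet and megakaryocyte lists. These are list means, and single markers differed. In the erythroid list Car2 lay above every WT array on all Keap1_KO arrays, and Alas2 below every WT array on Keap1_KO C and D. In the platelet list Ppbp and Gp9 differed in the same 2 ways. Ikzf2, of the Treg list, also lay below every WT array on Keap1_KO C and D. Of the 2 CD8 T cell markers, Cd8b1 followed the order and Cd8a did not. NK cell markers, 9 of 10 past the filter, spanned 8.09 to 9.78 on Keap1_KO and 7.07 to 9.45 on WT. The T cell and Treg list itself ranged from 13.81 to 14.69 on Keap1_KO and from 13.44 to 13.97 on WT. The part of other cells in the differences was not tested. Without Keap1_KO D the differences were 2.36 for Ccs, 1.34 for Cat, 1.25 for Sod1 and 1.14 for Gpx1.

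Promoter sequences from RefSeq (GRCm38.p6), covering 250 bases before to 50 bases after a gene's start, were matched for 8 of the 9 genes in 11 windows. The core of the antioxidant response element, TGACNNNGC on either strand, occurred in 1 of them, that of Sod1, compared with 12.4% of all 32851 windows and 16.3% of the 9904 tested genes with a window. Ccs, in the upper group, had no window, so its promoter was not searched. The windows of Sod1, Cat and Gpx1, 3 of the 4 genes of the upper group, are shown in the direction of transcription. Capitals mark the match, which begins 56 bases before the start and is printed as GCGTGGTCA because the motif lies on the opposite strand. In that order the windows cover chr16:90220512-90220811 (plus strand), chr2:103485104-103485403 (minus strand) and chr9:108338830-108339129 (plus strand).
Sod1: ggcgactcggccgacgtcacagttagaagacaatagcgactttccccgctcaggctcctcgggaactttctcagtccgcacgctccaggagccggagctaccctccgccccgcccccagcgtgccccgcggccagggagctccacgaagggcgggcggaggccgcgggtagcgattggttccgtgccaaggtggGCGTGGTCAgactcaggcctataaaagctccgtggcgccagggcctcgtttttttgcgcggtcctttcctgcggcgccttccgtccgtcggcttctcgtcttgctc
Cat: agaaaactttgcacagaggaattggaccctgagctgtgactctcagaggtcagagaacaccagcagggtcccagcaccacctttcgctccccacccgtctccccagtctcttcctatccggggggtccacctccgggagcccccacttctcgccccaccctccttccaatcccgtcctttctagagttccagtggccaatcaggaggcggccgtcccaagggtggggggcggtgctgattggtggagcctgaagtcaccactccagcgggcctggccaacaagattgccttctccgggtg
Gpx1: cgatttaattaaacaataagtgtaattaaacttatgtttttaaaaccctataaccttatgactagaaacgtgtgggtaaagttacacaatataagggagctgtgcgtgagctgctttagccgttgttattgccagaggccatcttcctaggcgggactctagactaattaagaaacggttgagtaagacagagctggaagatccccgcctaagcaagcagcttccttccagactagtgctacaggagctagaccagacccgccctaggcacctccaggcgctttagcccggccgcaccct
A match is a string of letters and not a bound site, and its lack in Cat and Gpx1 concerns these 300 bases only. The windows of Sod2 (difference 0.19), Gpx4 (0.45), Gpx7 (0.16), Prdx4 (0.74) and Prdx3 held no match either.

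Few other members of the same enzyme families could be tested, since some had no cluster of their own and others were dim. Of 10 further dismutase, glutathione peroxidase and peroxiredoxin genes, 7 had a cluster and 3 passed the filter, with a median difference of 0.01, which was -0.09 without Keap1_KO C and 0.18 without WT D. Prdx2, a cytosolic peroxiredoxin, was the highest of these, at 9.12 ± 0.87 in Keap1_KO and 7.66 ± 0.44 in WT (SD, n = 3 each), a difference of 1.46 (SE 0.47, limma adjusted p = 0.476). Its Keap1_KO and WT arrays overlapped. Gpx3, the secreted plasma enzyme, differed by 0.01 and Gpx2, the gut enzyme, by 0.0005. Both were dim, with WT means of 5.87 and 5.66 near the array medians of 5.16 to 5.43. This limits what their differences can show, and the list median is the value of Gpx3.

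Partners of the enzymes were described by lists, beside the median of 0.06 over all genes, and no gene in any of them passed the adjusted threshold. For the counts in these lists, 56.5% of all genes tested had a higher mean in Keap1_KO. All Keap1_KO arrays lay above all WT arrays for 9.11% of all genes. Copper delivery had 4 genes with a higher and 4 with a lower mean among 8 tested (median 0.13, and 0.02 without Keap1_KO D or 0.06 without WT F), none at an unadjusted limma p under 0.05. The copper chaperone Atox1 differed by 0.52 and the importer Slc31a1 by 0.30, with all Keap1_KO arrays above all WT arrays for Slc31a1 alone, and the exporter Atp7a differed by -0.43. Mitochondrial thioredoxin and glutathione partners, which serve the compartment of SOD2, had 7 of 8 higher. The list median was 0.39, from 0.29 without Keap1_KO D to 0.59 without Keap1_KO B. Gstk1 differed by 0.78 and the mitochondrial thioredoxin Txn2 by 0.64. For the compartment of catalase, 13 of 17 peroxisome genes had a higher mean. The list median was 0.15, from 0.14 without Keap1_KO D to 0.29 with array weights. The fatty acid oxidation enzymes Ech1 and Eci2 differed by 1.42 and 1.11, the import receptor Pex5 by 0.03.

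Genes of selenoprotein synthesis, on which GPX1 and GPX4 depend, had 7 of 9 higher (median 0.31, and 0.14 without Keap1_KO C, 0.19 without Keap1_KO D or 0.16 without WT F), with 0.46 for Sephs2, the enzyme that makes the selenium donor, and 0.45 for Trnau1ap. Genes of lipid peroxidation and ferroptosis, the process GPX4 restrains, were split, with 4 of 7 higher (median 0.41, and 0.24 without Keap1_KO D). Acsl4, which builds the lipids that peroxidise, differed by -0.52 and Gch1, the first enzyme of tetrahydrobiopterin synthesis, by 0.75. Oxidative folding in the endoplasmic reticulum, the setting of PRDX4, had 8 of 9 higher (median 0.37), led by the disulfide isomerases Txndc5 with 1.03 and P4hb with 0.92. That median was 0.19 without Keap1_KO C, 0.20 without Keap1_KO D, 0.17 without WT A and 0.11 without WT F.

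The list on the side of superoxide production had a median of 0.46, from 0.35 without Keap1_KO D to 0.79 with array weights. Of its 7 tested genes, 5 had a higher mean, beside 56.5% of all genes. For 3 of them all Keap1_KO arrays lay above all WT arrays, as they did for 9.11% of all genes. Cyba, which encodes the p22phox membrane subunit of NADPH oxidase, averaged 10.78 ± 1.78 in Keap1_KO and 8.39 ± 0.34 in WT (SD, n = 3 each), a difference of 2.39 (SE 0.84). The GTPase gene Rac2 differed by 1.19 and the cytosolic subunit gene Ncf4 by 0.85, while Xdh, which encodes xanthine dehydrogenase, differed by -0.76 and Cybb, the catalytic subunit gene of NADPH oxidase, by -0.16. NADPH oxidase genes are highly expressed in neutrophils, whose markers were highest on Keap1_KO D. Cyba was also highest on that array (12.22, with 8.79 on Keap1_KO B and 11.33 on Keap1_KO C). Cybb read 9.52, 9.16 and 11.22 in Keap1_KO and 10.01, 11.27 and 9.10 in WT. The part of neutrophils in these values was not tested. The lowest Keap1_KO value of Cyba exceeded the highest WT value by only 0.0068. Among NRF2 core targets other than these enzymes all 19 tested had a higher mean (median 0.93), 11 of them with all Keap1_KO arrays above all WT arrays. Gstm1, another glutathione transferase gene, differed by 2.87, Gstp1 by 2.64 and Taldo1 by 1.69. Nqo1 passed the filter through its Keap1_KO arrays alone, and the list was drawn up with results of these arrays known.

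**Figure D4:**
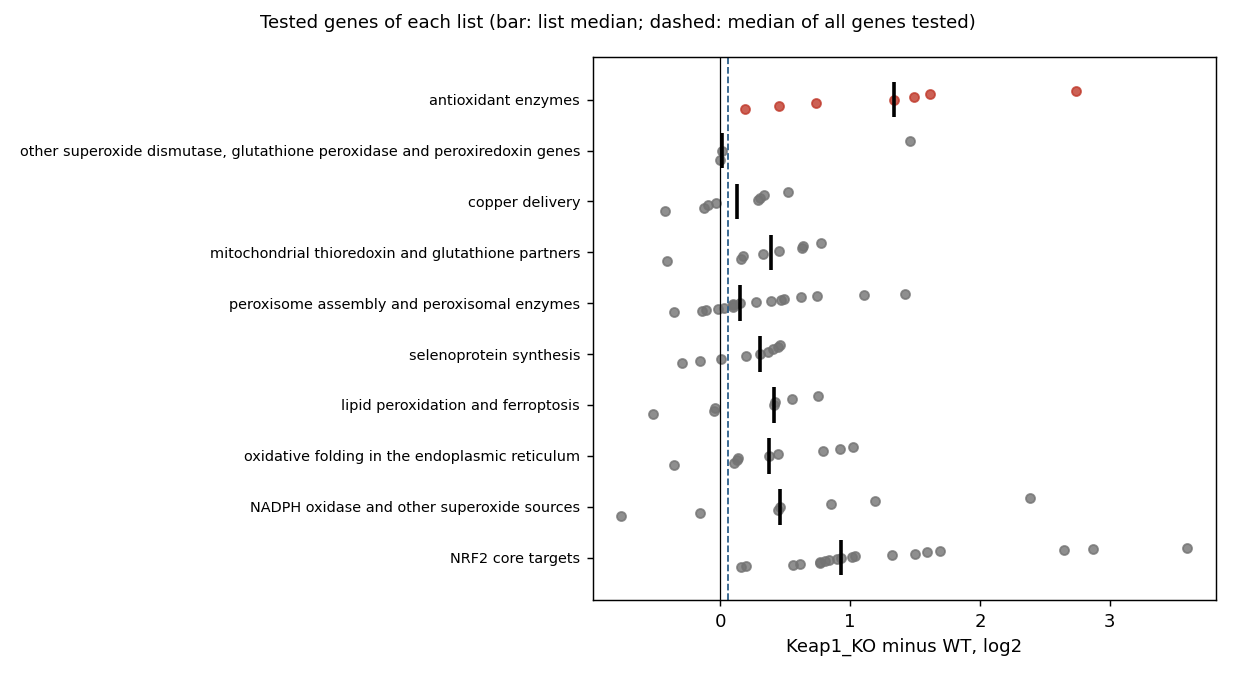
Difference of Keap1_KO minus WT (log2, horizontal axis) for each tested gene of 10 lists, 1 point per gene, with a bar at the list median and a dashed line at the median of all genes tested (0.06). The antioxidant enzymes (red) have a median of 1.33, the copper delivery genes 0.13.

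The genes whose values over the 6 arrays were most like those of Sod1, by Pearson correlation among all genes tested, were Tle5, a transcriptional corepressor gene (r = 0.999), and the pseudogenes Gm11533 and Rpl29-ps2. Those nearest to Cat were Akr1a1, which encodes an aldehyde reductase (r = 0.997), the endosomal GTPase gene Rab5b and the endosomal sorting gene Vps36. Those nearest to Gpx1 were the potassium channel gene Kcnk6 (r = 0.999), the pseudogene Rpl29-ps5 and the T cell receptor segment Trav14n-1. For the mean profile of the 7 genes they were the pseudogenes Gm10145 and Gm6750 and the early growth response gene Egr2 (r = 0.999). With 16825 genes and 6 arrays, correlations of this size are a description of these arrays only.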

How the data were processed

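Splenic CD4+ CD25+ T cells of Keap1_KO and WT mice were measured on 3 arrays each, from 40 ng of RNA per array per the labels' protocols. The authors deposited 1 log2 value per transcript cluster and array for 65528 clusters. Per the submitters' processing notes, RMA, Expression Console and Transcriptome Analysis Console from Affymetrix were used, with no version or role named. No source used here gives the genome build, and the design text names another Affymetrix mouse array than the one whose annotation the cluster identifiers match. Values ranged from 1.88 to 19.93 and 1268 clusters exceeded 16. For arrays their number limits the precision.

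Clusters with 1 symbol (30354) stood for a gene, with symbols updated by Entrez identifier. The intensity filter and the choice of the brightest cluster per gene left 16825 genes. The genotypes were compared in limma 3.58.1 under R 4.3.3 with lmFit and eBayes, 2-sided, with Benjamini-Hochberg adjustment over all genes tested, a fit tested on simulated data. Gpx7 and Keap1, below the filter, were taken from a fit of every cluster. Single values were compared by exact permutation tests. The genes and lists were chosen with earlier results of these data known. Named are the enzymes, Keap1, Nfe2l2, Nqo1, Txnrd1, up to 4 genes per list by size of difference and the 3 most alike genes per profile. Ccdc87, Rhoa, Scaf4, Elf5, Sbno2, Pex5, Cybb and the single markers set beside their list means were named outside that rule, after their values were seen. Alternatives were other filters, repeated quantile normalization, centring, array weights, another prior, every cluster on its own and leaving out each array. Proteins were not compared, since no protein table was used here, and the planned pair with Prdx3 was not run.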

Additional observations from a re-analysis of the deposited data

How the results depend on the processing

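The 7 tested antioxidant enzyme genes kept a higher mean in Keap1_KO under all 13 alternatives. Array weights gave WT A the most weight (3.38) and Keap1_KO B the least (0.352). With them 1880 of the 16825 genes tested had a limma adjusted p under 0.05. Sod1 (1.99), Ccs (3.36), Cat (1.63) and Gpx1 (1.89) were among these. The weights came from these same values and weighed down the array that was the lowest Keap1_KO array for all 8 enzyme genes. Those passes therefore add no support. A trended and robust prior called 1 gene in all. Genes at unadjusted p under 0.05 numbered 5897 with array weights, 4575 over every cluster, 2629 with no filter and 565 to 4552 with 1 array left out, beside 1733. Other family members had a median of 0.74 where all 6 arrays had to pass the filter. Leaving out 1 array at a time, the genes called across the series ranged from 0 to 569. The antioxidant enzyme genes separated from WT ranged from 2 to 7 (7 without Keap1_KO B, 4 without WT A or without WT D). Those at unadjusted p under 0.05 ranged from 2 to 6. With an array fewer, separation is easier for every gene, and 31.4% of all genes lay above WT without Keap1_KO B. That share is not given here without WT A or WT D, so these counts are a description. With 1 array left out, the difference ranged from 1.23 to 1.99 for Sod1 and from 2.25 to 3.60 for Ccs. The highest of both was without Keap1_KO B, the one left-out array at which they passed. The unadjusted count was 2 without Keap1_KO C, without Keap1_KO D or without WT F. The limma adjusted p over the 13 alternatives ran from 0.0218 to 0.9 for Ccs, from 0.0408 to 0.9 for Sod1 and Gpx1, and from 0.0414 to 0.9 for Cat. Cat minus Gpx1 reversed with array weights (-0.25) and ranged from -0.10 to 0.68 with 1 array left out. The median of all genes moved to 0.17 with centred arrays, 0.14 after repeated quantile normalization, -0.08 with every cluster on its own and -0.03 with no filter. No paired analysis was possible because the genotypes share only the letter D. Gpx7 has values only in the fits without a filter.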
